A study of Rattus norvegicus with 8 samples.

Results

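Solute carriers are the membrane proteins that move amino acids, transmitters, sugars, ions, metals and metabolites across the cell surface and across the membranes of vesicles, mitochondria and other organelles. The genes described here are those of this superfamily measured in rat brain 2 h after a transient stroke, with or without earlier treatment by candesartan, a blocker of the angiotensin AT1 receptor. They were taken as every probe set whose platform annotation gave a single symbol beginning with Slc and a number. Slc1a2, Slc1a3, Slc17a7 and Slc2a1 were left out by the rule, as were the Slco genes. This gave 224 genes on 273 probe sets. Of these, 154 genes had a signal above 916.3, the 40th percentile of all values, on at least 2 of the 8 arrays. Each was read on its brightest probe set, among 7466 genes represented and 10310 probe sets tested in the series. The 154 genes came from 41 solute carrier families. Slc7a6os and Slc4a1ap, 2 of the 154, carry the name of a neighbouring or partner gene and do not encode transporters themselves.

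Arrays of the Affymetrix RAE 230A design were hybridised with total RNA from part of the right brain hemisphere of male Wistar rats aged 7 weeks and weighing 160 to 200 g. The 4 groups were candesartan followed by occlusion of the middle cerebral artery (MCAO), vehicle followed by MCAO, candesartan followed by a sham operation, and vehicle followed by a sham operation. Candesartan was injected at 0.1 mg/kg with 2 injections a day for 5 days, the vehicle was saline, and MCAO lasted 90 min. Each array held RNA pooled from 2 rats and each group had 2 independent pools, so the spread between single animals is not seen. In a tissue sample, fewer cells of a type and less RNA per cell cannot be told apart.

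In the brain, solute carriers set how long a transmitter stays outside the cell, load synaptic vesicles, hold the chloride gradient that makes GABA inhibitory, and bring glucose, lactate and amino acids from blood to neurons. Their turnover depends largely on ion gradients that the sodium pump maintains, and those gradients run down when blood flow stops. Several are also made in response to stress or activity. Genes of the amino acid response are induced through the transcription factor Atf4, and genes of the activity response through the factor CREB at a promoter sequence called the cAMP response element (CRE).

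Promoters were available for 128 of the 154 genes, as RefSeq sequence of the GRCr8 build from 250 bases before to 50 bases after each gene's start. The CRE was searched as the letters TGACGTCA, which read the same on both strands. It was present in 3 of the 128 promoters (2.34%) and in 612 of 33469 promoters of all genes (1.83%). The 3 sequences are shown because one of them belongs to Slc25a25, the solute carrier gene with the largest positive difference between MCAO and sham on the log2 scale. The CRE is in capitals and each sequence runs 5′ to 3′ along its gene's strand.
Slc25a25, chr3:36116582-36116831, minus strand: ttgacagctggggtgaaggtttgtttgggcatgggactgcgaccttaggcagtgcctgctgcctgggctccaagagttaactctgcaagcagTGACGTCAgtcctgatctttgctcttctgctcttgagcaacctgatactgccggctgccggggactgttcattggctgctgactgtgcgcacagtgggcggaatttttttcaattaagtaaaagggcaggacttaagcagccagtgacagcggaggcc
Slc18a2, chr1:268399943-268400002, plus strand: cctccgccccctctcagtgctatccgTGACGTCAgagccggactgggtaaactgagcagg
Slc25a33, chr5:165503024-165503083, minus strand: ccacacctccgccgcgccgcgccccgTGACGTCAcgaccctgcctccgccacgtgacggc

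The CRE of Slc25a25 lay 158 to 151 bases before the gene's start, that of Slc18a2 52 to 45 bases and that of Slc25a33 84 to 77 bases before. A match in a promoter is a match of letters and does not show a site in use. MCAO minus sham was 0.52 for Slc25a25, -0.24 for the vesicular monoamine transporter gene Slc18a2 and -0.04 for the mitochondrial pyrimidine carrier gene Slc25a33, so the 3 genes did not share a direction. All such differences are on the scale of log2(signal + 369.9), which understates the change of dim genes. A second sequence, the amino acid response element, searched as TGATGNAAN on both strands, was found in 4 of the 128 promoters (3.12%), against 3.97% of all promoters. Those 4 genes were Slc35a2, Slc38a1, Slc49a4 and Slc7a1.

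The arrays shared 1 scaling, with trimmed mean signals within 0.000426% of each other and medians of 1257.7 to 1378.2. The library labelled MCAO candesartan 2 stood apart. It correlated with the rest at 0.9595 on average, against 0.9761 to 0.9783 for each of the other 7, and its treatment protocol stated no pretreatment, so that its group rests on its description. Over the 154 genes, the 2 pools of a group were a median of 0.243 apart on the log2 scale in MCAO candesartan, 0.137 apart in MCAO vehicle, 0.189 apart in sham candesartan and 0.122 apart in sham vehicle. Fos, an immediate early gene that rises after ischaemia, marked the operated arrays. It had signals of 6332.2 and 7694.7 in MCAO candesartan, 10898.8 and 7984.5 in MCAO vehicle, 754.8 and 852.3 in the sham candesartan pools, and 954.8 and 964.8 in sham vehicle.

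No solute carrier gene passed the test in any comparison. The first comparison pooled both pretreatments and asked what MCAO changed. In limma's test with Benjamini-Hochberg adjustment over all 10310 probe sets, 0 of 154 solute carrier genes had an adjusted p under 0.05, while 43 probe sets in all (0.417%) did. At an unadjusted p under 0.05 there were 16 solute carrier genes (10.4%), 5 higher and 11 lower after MCAO, against 9.52% of all probe sets. The median difference over the 154 genes was -0.02, against -0.01 over all probe sets, and single genes ranged from -0.73 to 0.52. For 152 of the 154 genes the 95% confidence interval lay within a 2-fold change, in either direction, of the signal plus the added constant. The median half-width of the interval was 0.26 on the log2 scale. For dim genes a change inside that bound can exceed 2-fold in the signal itself. The count of 0 did not hold in every fit that left out 1 array.

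Arrays were also counted one by one. All 4 MCAO arrays lay above all 4 sham arrays for 4 solute carrier genes (2.6%), against 2.83% of all probe sets. They lay below all 4 sham arrays for 4 others (2.6%), against 2.39%. The first 4 were Slc25a22, Slc25a25, Slc6a6 and Slc7a5, and the second 4 were Slc15a2, Slc27a1, Slc49a4 and Slc4a4. These shares were near those of all probe sets. Since the genes were picked by their separation, no test of the separation itself is given. Adjusted p given below for such genes are those of limma for the difference.

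**Figure D1:**
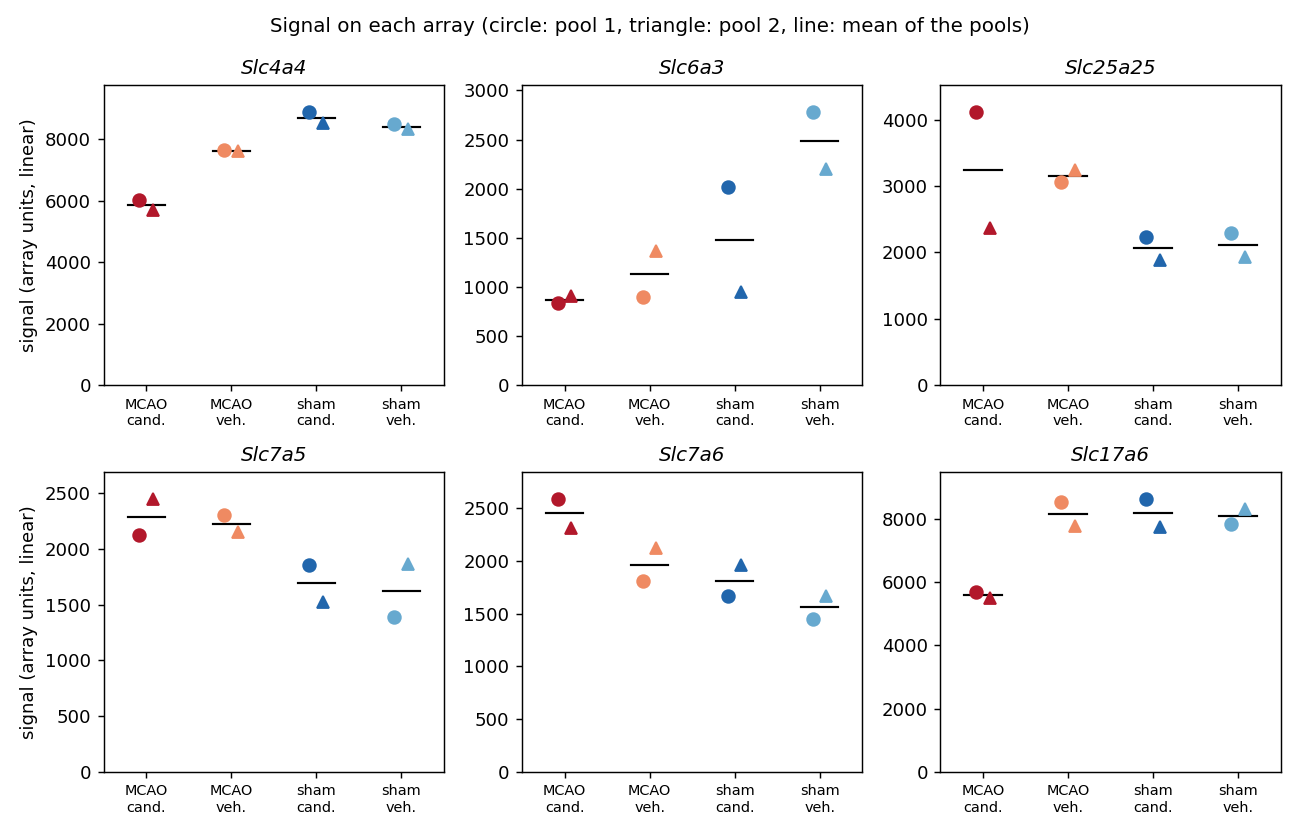
Signal (linear scale, array units) on each of the 8 arrays for the 6 solute carrier genes with the smallest p in the comparison of MCAO with sham over both pretreatments; circles are pool 1, triangles pool 2 and lines the mean of the 2 pools. The 4 MCAO arrays lay below the 4 sham arrays for Slc4a4 and above them for Slc25a25 and Slc7a5, while the low Slc17a6 signals were those of the 2 MCAO candesartan arrays.

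Neurotransmitter transporters came first by the size of their differences. Among 15 genes for uptake and vesicle loading, 10 were lower and 5 higher in mean after MCAO, with a median difference of -0.12. An unadjusted p under 0.05 was found for 5 of the 15, against 9.52% of all probe sets. Relative to sham vehicle, the class median was -0.08 and -0.26 on the MCAO candesartan arrays and 0.03 and -0.05 in MCAO vehicle. It was 0.09 and -0.22 in the sham candesartan pools, so 1 sham array was also low. Slc6a3, the dopamine transporter of midbrain dopamine neurons, had signals of 835.3 and 905.8 in MCAO candesartan, 899.3 and 1365.7 in MCAO vehicle, 2013.6 and 949.3 in the sham candesartan pools, and 2778.0 and 2200.6 in sham vehicle. All 4 MCAO arrays and the second sham candesartan pool were low, and the sham vehicle pools were the highest. The difference was -0.73 ± 0.18 (SE), with a 95% confidence interval of -1.14 to -0.32 and an adjusted p = 0.174 by limma. With vehicle alone it was -0.94 (adjusted p = 0.379 by limma), and fitting only the 2 vehicle groups gave an adjusted p = 0.0364 by limma. Of 18 alternative fits for the vehicle comparison, that was the only 1 in which Slc6a3 passed the test. Without the second sham candesartan array, which leaves 1 array in that group, the difference over both pretreatments was -0.94. Over 17 alternative fits it ranged from -0.94 to -0.51.

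Th and Ret, 2 other genes of midbrain dopamine neurons, had a like order over the arrays. Th, the first enzyme of dopamine synthesis, gave 666.9 and 1198.7 in MCAO candesartan, 1301.7 and 1464.2 in MCAO vehicle, 2287.5 and 736.8 in the sham candesartan pools, and 2519.5 and 2693.5 in sham vehicle. As with Slc6a3, the second sham candesartan pool was low and the sham vehicle pools were high. Ret, the receptor for GDNF-family factors, differed by -0.60 between MCAO and sham (adjusted p = 0.242 by limma). Of 9 such marker genes on the array, 7 passed the filter, 0 passed the test, 6 were lower and 1 was higher after MCAO, and the median difference was -0.24. Their summed signal was 11046.3 to 12643.1 over the 4 MCAO arrays and 10022.8 to 16414.9 over the 4 sham arrays, and no marker was listed at 0. This list was chosen after the values of Slc6a3 were seen and holds Slc18a2, and its part in the Slc6a3 difference was not tested.

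**Figure D2:**
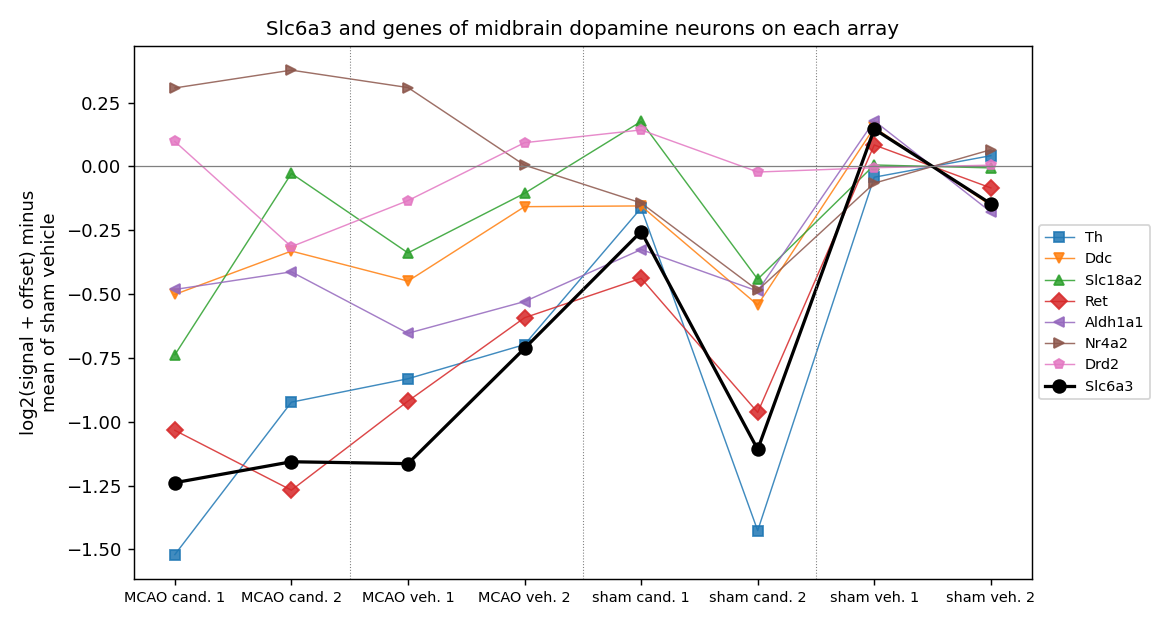
Signal of Slc6a3 and of the 7 midbrain dopamine neuron genes that passed the filter on each array, as log2(signal + offset) minus the mean of the sham vehicle pools. Slc6a3, Th and Ret were all low on the 4 MCAO arrays and on the second sham candesartan array, while Drd2 and Nr4a2 did not have this order.

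Slc18a2, which loads dopamine and other monoamines into vesicles, had 653.4 and 1304.7 in MCAO candesartan, 979.8 and 1216.8 in MCAO vehicle, 1558.7 and 886.8 in the sham candesartan pools, and 1343.7 and 1330.2 in sham vehicle. The groups overlapped, and the difference over both pretreatments was -0.24 (adjusted p = 0.729 by limma). A dimmer probe set of the same gene gave 558.4 and 614.9 in MCAO candesartan, 844.8 and 996.8 in MCAO vehicle, 903.8 and 905.8 in the sham candesartan pools, and 1201.0 and 1232.8 in sham vehicle. On that probe set the difference was -0.36 (adjusted p = 0.37 by limma).

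Slc17a6 encodes the vesicular glutamate transporter typical of thalamus, hypothalamus and brainstem. Its signals were 5693.8 and 5514.2 in MCAO candesartan, 8530.3 and 7782.0 in MCAO vehicle, 8632.3 and 7739.9 in the sham candesartan pools, and 7835.4 and 8330.3 in sham vehicle. Both MCAO candesartan pools lay far below the other 6 arrays, which did not separate. Candesartan minus vehicle after MCAO was -0.51 ± 0.12 (SE), with a 95% confidence interval of -0.77 to -0.26 and an adjusted p = 0.195 by limma. The interaction of drug and operation was -0.53 (adjusted p = 0.466 by limma). Without the MCAO candesartan 1 array, candesartan minus vehicle after MCAO was -0.53. That fit leaves MCAO candesartan 2, the array that stood apart, alone in its group. Tcf7l2, a thalamic transcription factor, was likewise low on the same arrays, at 4078.2 and 3747.6 in MCAO candesartan, 6194.3 and 6952.2 in MCAO vehicle, 5176.0 and 6169.2 in the sham candesartan pools, and 5790.3 and 6335.7 in sham vehicle. Of 8 thalamus and hypothalamus markers on the array, 6 passed the filter. After MCAO, 3 of these were higher and 3 lower with candesartan than with vehicle, with a median of 0.01. Their summed signal over all 8 was 22248.9 and 29515.6 in MCAO candesartan, against 30686.0 and 23135.2 in MCAO vehicle, and their part in the Slc17a6 difference was not tested.

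Slc6a13, a GABA and taurine carrier known from the meninges, gave 551.9 and 294.9 in MCAO candesartan, 831.3 and 952.8 in MCAO vehicle, 1490.7 and 686.9 in the sham candesartan pools, and 984.0 and 1601.7 in sham vehicle. The MCAO candesartan pools were the lowest, and the sham pools differed widely from each other. The difference over both pretreatments was -0.61 (adjusted p = 0.36 by limma). Slc6a20a, a proline carrier, differed by -0.33 (adjusted p = 0.509 by limma), and its other probe set by -0.16. Slc6a6, the taurine transporter, had 3266.3 and 3486.2 in MCAO candesartan, 3309.8 and 3431.8 in MCAO vehicle, 2942.9 and 2817.9 in the sham candesartan pools, and 3104.4 and 2592.5 in sham vehicle. Every MCAO array lay above every sham array, with a difference of 0.21 (adjusted p = 0.487 by limma).

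Several other transmitter carriers had smaller differences. Slc32a1, which loads GABA and glycine into vesicles, differed by -0.21 (adjusted p = 0.761 by limma), and its 2 sham candesartan pools gave 5831.3 and 2944.9. Slc1a1, a neuronal glutamate transporter, differed by -0.12, the glycine transporter gene Slc6a9 by 0.13 (-0.02 and 0.21 on its other probe sets) and the creatine transporter gene Slc6a8 by 0.20. Slc1a5, a neutral amino acid exchanger of the glutamate transporter family, differed by 0.22 (adjusted p = 0.746 by limma). Slc6a11, a GABA transporter, was near the filter, with signals of 413.4 and 712.3 in MCAO candesartan, 749.9 and 869.8 in MCAO vehicle, 1052.8 and 392.9 in the sham candesartan pools, and 679.0 and 917.8 in sham vehicle, and its groups overlapped. The 4 genes left out by the rule (Slc1a2, Slc1a3, Slc17a7 and Slc2a1) also gave 0 calls, with differences from -0.25 for Slc1a3 to 0.27 for Slc17a7.

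**Figure D3:**
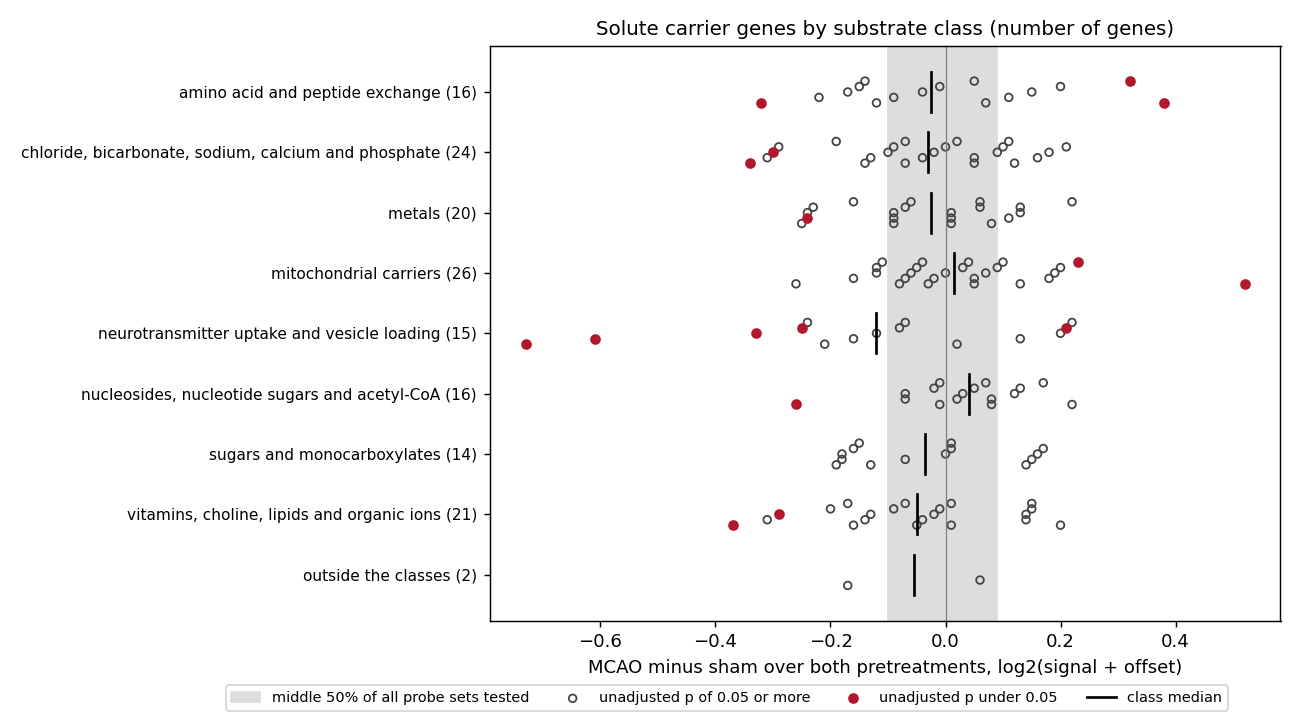
Difference between MCAO and sham over both pretreatments, in log2(signal + offset), for each of the 154 solute carrier genes, grouped by substrate class; filled points have an unadjusted p under 0.05, black lines are class medians and the grey band holds the middle 50% of all 10310 probe sets, from -0.10 to 0.09. Medians of the 8 classes lay between -0.12 and 0.04, and the 2 genes outside the classes had a median of -0.06.

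Amino acid exchangers held 2 of the 5 genes that were higher after MCAO at an unadjusted p under 0.05. Slc7a5, the light chain of the large neutral amino acid exchanger LAT1, gave 2123.6 and 2449.9 in MCAO candesartan, 2302.0 and 2157.1 in MCAO vehicle, 1856.1 and 1526.2 in the sham candesartan pools, and 1388.2 and 1861.6 in sham vehicle. All MCAO arrays exceeded all sham arrays. The difference was 0.38 ± 0.11 (SE), with a 95% confidence interval of 0.13 to 0.63 and an adjusted p = 0.254 by limma. It was 0.39 with vehicle and 0.37 with candesartan. Slc7a6, which exchanges cationic for neutral amino acids, gave 2587.0 and 2312.0 in MCAO candesartan, 1807.1 and 2120.6 in MCAO vehicle, 1662.2 and 1956.6 in the sham candesartan pools, and 1450.2 and 1666.2 in sham vehicle. Here the first MCAO vehicle pool lay below the higher sham candesartan pool, and the difference was 0.32 (adjusted p = 0.308 by limma).

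Partners and relatives of these exchangers had smaller differences. Slc3a2, the heavy chain that carries LAT1 to the cell surface, ranged from 7515.4 to 8810.3 over the MCAO arrays and from 8139.3 to 9090.6 over the sham arrays, a difference of -0.09 (adjusted p = 0.775 by limma). The glutamine and neutral amino acid carrier genes Slc38a1, Slc38a2 and Slc38a3 differed by -0.04, -0.14 and 0.05, and the arginine and lysine carrier gene Slc7a1 by 0.11. Of the amino acid response list, which holds 7 solute carrier genes besides Atf4 and its other targets, 11 of 12 genes on the array passed the filter and 0 passed the test, with 6 higher, 5 lower and a median of 0.01. Atf4 itself had 15204.4 and 17079.5 in MCAO candesartan, 15255.0 and 16421.9 in MCAO vehicle, 12149.6 and 13094.8 in the sham candesartan pools, and 11849.5 and 13278.8 in sham vehicle. The 4 MCAO arrays lay above the 4 sham arrays, with a difference of 0.34 (adjusted p = 0.164 by limma), while Asns, asparagine synthetase, differed by -0.18.

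Slc15a2, a peptide transporter that takes up dipeptides in astrocytes and choroid plexus, lay lower on every MCAO array. It gave 2510.5 and 2439.4 in MCAO candesartan, 2263.0 and 2684.0 in MCAO vehicle, 3007.9 and 3061.4 in the sham candesartan pools, and 3805.7 and 2882.4 in sham vehicle. The difference was -0.32 (adjusted p = 0.32 by limma). Over all 16 genes of the class, 7 were higher and 9 lower, with a median of -0.03. Slc3a1, the heavy chain of a cystine exchanger, varied widely between arrays, from 4937.5 on the first sham candesartan array to 12191.0 on the first sham vehicle array. It differed by -0.01 between MCAO and sham over both pretreatments, but by -0.39 with vehicle. Its interaction of drug and operation was 0.76 and did not pass the test.

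Ion carriers included the gene with the smallest p. Slc4a4, the electrogenic sodium bicarbonate cotransporter through which astrocytes regulate pH, gave 6026.8 and 5688.2 in MCAO candesartan, 7638.0 and 7623.5 in MCAO vehicle, 8878.2 and 8513.7 in the sham candesartan pools, and 8499.2 and 8320.3 in sham vehicle. All MCAO arrays lay below all sham arrays, and the MCAO candesartan pools were the lowest. The difference over both pretreatments was -0.34 ± 0.08 (SE), with a 95% confidence interval of -0.51 to -0.17 and an adjusted p = 0.109 by limma. It was -0.54 with candesartan (adjusted p = 0.0913 by limma) and -0.13 with vehicle, and the interaction was -0.41 (adjusted p = 0.54 by limma). Without the MCAO candesartan 1 array the difference over both pretreatments was -0.36, in a fit that leaves MCAO candesartan 2 alone in its group.

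A second Slc4a4 probe set did not share this pattern. It gave 765.8 and 2074.0 in MCAO candesartan, 957.3 and 1206.3 in MCAO vehicle, 462.9 and 353.4 in the sham candesartan pools, and 1321.0 and 2270.0 in sham vehicle. There the sham candesartan pools were the lowest and the difference between MCAO and sham was 0.28, opposite in sign. Over the astrocyte list, 10 of 10 markers passed the filter and 0 passed the test, with 9 lower, 1 higher and a median difference of -0.16. Aqp4, the astrocyte water channel, gave 13006.3 and 9753.7 in MCAO candesartan, 15414.4 and 16316.4 in MCAO vehicle, 17368.5 and 15961.7 in the sham candesartan pools, and 20673.2 and 18876.2 in sham vehicle. The other markers did not all share the low MCAO candesartan signals. After MCAO, 5 of the 10 were higher and 5 lower with candesartan than with vehicle, with a median of 0.00. The summed astrocyte signal was 175774.7 to 240042.6 on the MCAO arrays and 202569.4 to 217969.0 on the sham arrays, and its part in the Slc4a4 difference was not tested.

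Slc20a2, a sodium-dependent phosphate carrier, gave 1928.6 and 1681.6 in MCAO candesartan, 2710.5 and 1808.7 in MCAO vehicle, 3581.3 and 2720.9 in the sham candesartan pools, and 2101.6 and 2013.6 in sham vehicle. The sham candesartan pools stood highest. MCAO minus sham was -0.69 with candesartan (adjusted p = 0.22 by limma) and 0.09 with vehicle, with an interaction of -0.78 (adjusted p = 0.495 by limma). Its other probe set gave 1277.7 and 1454.2 in MCAO candesartan, 1586.2 and 1607.2 in MCAO vehicle, 2480.5 and 1739.6 in the sham candesartan pools, and 1713.0 and 1903.1 in sham vehicle. On that probe set every MCAO array lay below every sham array, with a difference of -0.32 over both pretreatments (adjusted p = 0.393 by limma).

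The chloride cotransporters set the direction of GABA currents. Slc12a5, the potassium chloride cotransporter KCC2 of mature neurons, gave 31736.9 and 50701.1 in MCAO candesartan, 33735.8 and 27708.7 in MCAO vehicle, 31235.3 and 26399.6 in the sham candesartan pools, and 33167.6 and 30946.3 in sham vehicle. The high value was that of the MCAO candesartan 2 array alone. That array was also the highest for some other bright genes, such as oligodendrocyte Mbp and neuronal Snap25, but the lowest for neuronal Eno2. The difference over both pretreatments was 0.21 (adjusted p = 0.681 by limma). Slc12a2, the sodium potassium chloride cotransporter NKCC1, ranged from 10854.8 to 13693.9 on the MCAO arrays and from 12465.9 to 13294.3 on the sham arrays, a difference of -0.09. Slc20a1, the other phosphate carrier of its family, differed by 0.12. The sodium calcium exchanger genes Slc8a1, Slc8a2 and Slc8a3 differed by -0.07, 0.18 and 0.11, with adjusted p of 0.864, 0.683 and 0.818 by limma. Over the 24 ion carriers 11 were higher and 13 lower, and the median was -0.03.

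Mitochondrial carriers held the largest positive difference. Slc25a25, a calcium-activated carrier that exchanges ATP-Mg for phosphate across the inner membrane, gave 4112.1 and 2364.9 in MCAO candesartan, 3056.9 and 3247.4 in MCAO vehicle, 2232.6 and 1892.1 in the sham candesartan pools, and 2287.0 and 1923.1 in sham vehicle. Every MCAO array lay above every sham array, and the MCAO candesartan pools differed most from each other. The difference was 0.52 ± 0.15 (SE), with a 95% confidence interval of 0.20 to 0.84 and an adjusted p = 0.235 by limma. It was 0.51 with vehicle and 0.53 with candesartan. Without the MCAO candesartan 1 array the difference over both pretreatments was 0.34. Without the MCAO candesartan 2 array it was 0.70, and each of these fits leaves 1 array in that group.

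Slc25a22, a glutamate carrier, gave 9751.5 and 10331.6 in MCAO candesartan, 8608.3 and 8189.9 in MCAO vehicle, 7860.4 and 7802.4 in the sham candesartan pools, and 7473.4 and 7971.4 in sham vehicle. The MCAO candesartan pools were highest and the MCAO vehicle pools next, with a difference of 0.23 (adjusted p = 0.339 by limma). Slc25a11, the oxoglutarate malate carrier, differed in sign by pretreatment, with 0.11 after candesartan and -0.36 after vehicle, and an interaction of 0.48 (adjusted p = 0.54 by limma). Of the 26 mitochondrial carriers 14 were higher and 12 lower, with a median of 0.02.

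The adenine nucleotide translocator genes Slc25a4 and Slc25a5, which exchange ATP for ADP, and the mitochondrial phosphate carrier gene Slc25a3 had mean signals of 51128.8, 34606.5 and 36307.3. Signals of different probe sets do not rank transcripts. Slc25a4 gave 50621.0 and 74845.4 in MCAO candesartan, 45781.9 and 43074.3 in MCAO vehicle, 49692.1 and 49347.3 in the sham candesartan pools, and 48660.4 and 47008.1 in sham vehicle. The MCAO candesartan 2 array was far above the other 7. Slc25a5 gave 36064.5 and 49415.9 in MCAO candesartan, against 30828.9 and 32577.8 in MCAO vehicle, and Slc25a3 gave 34008.0 and 49339.4, against 35796.9 and 33537.6. Candesartan minus vehicle after MCAO was 0.47 for Slc25a4 (adjusted p = 0.281 by limma), 0.41 for Slc25a5 (adjusted p = 0.293 by limma) and 0.24 for Slc25a3. Without the MCAO candesartan 2 array it was 0.19 for Slc25a4 and 0.18 for Slc25a5, and under quantile normalization of all arrays 0.08 and 0.15.

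Among carriers of sugars and monocarboxylates, 0 of 14 genes had an unadjusted p under 0.05, with 7 higher, 7 lower and a median of -0.03. Slc2a3, the neuronal glucose transporter GLUT3, gave 4043.7 and 3486.7 in MCAO candesartan, 3927.2 and 4149.2 in MCAO vehicle, 3131.4 and 3875.7 in the sham candesartan pools, and 3579.8 and 3344.8 in sham vehicle. The groups overlapped, and the difference was 0.15 (adjusted p = 0.668 by limma). Slc16a1, the lactate and pyruvate carrier MCT1, ranged from 3934.2 to 4662.6 on the MCAO arrays and from 3907.7 to 4604.6 on the sham arrays. Slc16a7, the neuronal monocarboxylate carrier MCT2, differed by -0.18 (adjusted p = 0.715 by limma). Slc2a13, a proton myo-inositol symporter, differed by 0.01. The largest difference of the class was that of Slc45a4, at -0.19. Slc5a6 and Slc5a7, which carry vitamins and choline, stood in this class by family and differed by 0.01 and -0.13.

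Metal carriers gave 10 genes higher and 10 lower, with a median of -0.02, and 1 of 20 had an unadjusted p under 0.05. Slc39a7, a zinc carrier of the endoplasmic reticulum and Golgi, had the largest difference, -0.25 (adjusted p = 0.706 by limma). Slc30a1, a zinc exporter of the cell surface, differed by 0.06, and Slc39a14, a zinc and manganese importer, by 0.13. Slc11a2, the iron carrier DMT1, differed by 0.22 on its brighter probe set and by -0.24 on the other. Slc30a3, which loads zinc into glutamatergic vesicles, gave 10477.8 and 11492.8 in MCAO candesartan, 8512.8 and 8759.8 in MCAO vehicle, 7538.5 and 9524.0 in the sham candesartan pools, and 10302.4 and 9683.6 in sham vehicle. It lay higher after MCAO with candesartan and lower after MCAO with vehicle, with an interaction of 0.56 ± 0.18 (SE; adjusted p = 0.495 by limma). Slc31a1, the copper carrier, gave 1523.2 and 1754.1 in MCAO candesartan, against 2075.1 and 2606.0 in MCAO vehicle, a difference of -0.43 (adjusted p = 0.275 by limma), and its other probe set gave -0.33.

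Nucleoside, nucleotide sugar and acetyl-CoA carriers numbered 16, of which 10 were higher and 6 lower, with a median of 0.04. Slc29a1, the equilibrative nucleoside transporter that moves adenosine, gave 1026.3 and 1457.2 in MCAO candesartan, 1616.7 and 1747.7 in MCAO vehicle, 1951.1 and 1887.6 in the sham candesartan pools, and 1576.0 and 1806.1 in sham vehicle. Both MCAO candesartan pools lay below the other 6. MCAO minus sham was -0.52 with candesartan (adjusted p = 0.278 by limma) and -0.26 over both pretreatments (adjusted p = 0.505 by limma), and the first was -0.33 without the MCAO candesartan 1 array. The 2 probe sets of Slc29a3, a nucleoside transporter of lysosomes, differed by 0.17 and -0.09. Slc35a1, the CMP-sialic acid carrier of the Golgi, differed by 0.03 on both of its probe sets.

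Carriers of vitamins, choline, lipids and organic ions numbered 21, of which 7 were higher and 14 lower, with a median of -0.05. Slc22a15, an organic cation carrier by family, had the largest difference, at -0.37 (adjusted p = 0.448 by limma), with signals between 481.4 and 936.3 after MCAO and between 870.3 and 1007.3 after sham. Slc27a1, a fatty acid transport protein, and Slc49a4 lay below sham on every MCAO array, with differences of -0.16 and -0.14 (adjusted p = 0.61 and 0.601 by limma). Slc22a6 and Slc22a8, organic anion carriers known from choroid plexus and vessels, differed by -0.31 and -0.17, and the sulfate carrier gene Slc13a4 by -0.04. The summed signal of 9 choroid plexus markers was 65897.3 to 81136.6 on the MCAO arrays and 67752.7 to 84977.6 on the sham arrays. All 7 of these markers above the filter were lower with candesartan than with vehicle after MCAO, with a median of -0.25 and 0 calls by limma, and their part in the values of Slc6a13 and Slc22a8, -0.69 and -0.26 in that comparison, was not tested.

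The next comparisons took the pretreatments apart. With vehicle, 0 of 154 genes passed the test, against 0.262% of all probe sets, and 5 (3.25%) had an unadjusted p under 0.05, against 7.04%. The median was 0.02, against 0.01 over all probe sets. With candesartan, 0 of 154 passed the test, against 0.242%, and 20 (13%) had an unadjusted p under 0.05, 7 higher and 13 lower, against 12.4%. The median was -0.06, against -0.03. The smallest adjusted p was 0.379 with vehicle, for Slc6a3, and 0.0913 with candesartan, for Slc4a4. Without the MCAO candesartan 1 array, the MCAO candesartan 2 array that stood apart is the only one of its group. The difference of Slc4a4 with candesartan was then -0.58.

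The 2 MCAO effects share no arrays, and over the 154 genes Pearson's r between them was 0.249 and Spearman's rho 0.223. Both effects had the same sign for 95 genes (61.7%). Over all 7466 genes r was 0.134 and rho 0.020, and 50.2% shared a sign. These are descriptions across genes, which are not independent of each other. Slc6a3, Slc25a25 and Slc7a5 lay on the same side of 0 in both, whereas Slc17a6, Slc20a2 and Slc4a4 had differences of -0.52, -0.69 and -0.54 with candesartan and of 0.01, 0.09 and -0.13 with vehicle.

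**Figure D4:**
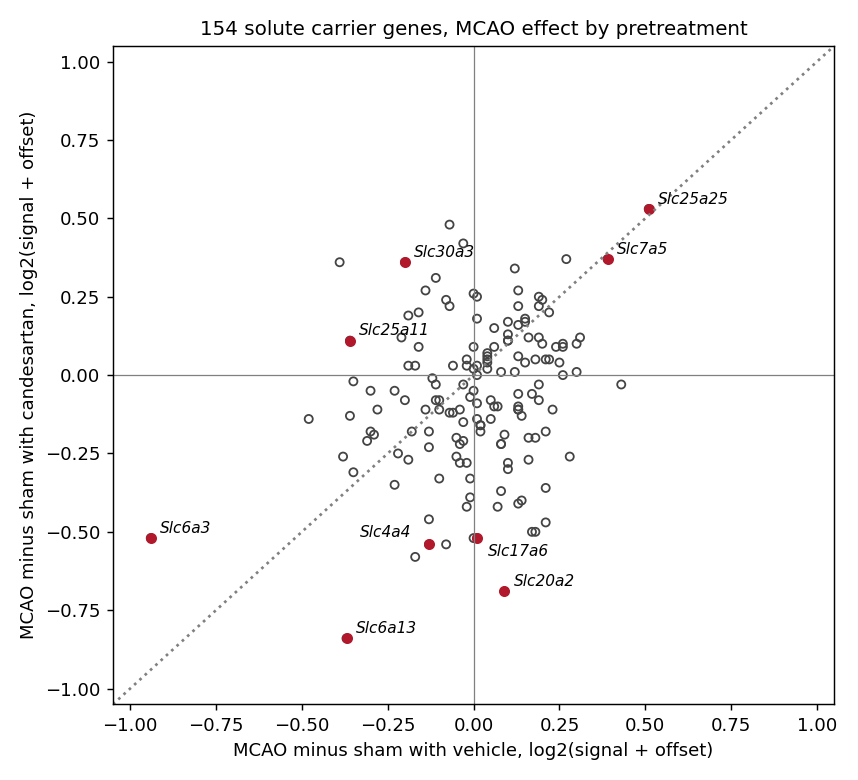
Difference between MCAO and sham with vehicle (x axis) and with candesartan (y axis), in log2(signal + offset), for each of the 154 solute carrier genes; the dotted line marks equal effects and filled points are named genes. Slc25a25 and Slc7a5 lie near the line at 0.51 and 0.53 and at 0.39 and 0.37, while Slc17a6, at 0.01 with vehicle and -0.52 with candesartan, lies far below it.

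Whether MCAO acted differently after candesartan was tested by the interaction. It gave 0 of 154 calls, against 0.0194% of all probe sets, and 9 genes (5.84%) with an unadjusted p under 0.05, 2 positive and 7 negative, against 8.87%. The median was -0.07, against -0.05 over all probe sets, and the smallest adjusted p was 0.466, for Slc17a6. Slc4a7, another bicarbonate cotransporter, was among those with the smallest p, at -0.54 (adjusted p = 0.551 by limma). Without the MCAO candesartan 1 array, MCAO candesartan 2 is alone in its group. The interaction was then 0.88 for Slc12a5, 0.70 for Slc25a4 and 0.68 for Slc25a5.

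Candesartan against vehicle after MCAO gave 0 of 154 calls, against 0.0679% of all probe sets. There were 16 genes (10.4%) with an unadjusted p under 0.05, 7 higher and 9 lower, against 13.1%. The median was -0.06, against -0.03. After Slc17a6 and Slc4a4 the smallest p belonged to Slc31a1, Slc25a4, Slc35e4 and Slc25a5. These results depended on the array left out. Without the MCAO candesartan 1 array, the array that stood apart is the only one of its group, so only differences are given. Slc25a4 was then at 0.75 and Slc4a10, a neuronal bicarbonate transporter, at -0.95. Slc4a10 had signals of 7731.4 and 3582.2 in MCAO candesartan, against 7408.0 and 7173.6 in MCAO vehicle, so that only the second pool was low. Over 19 alternative fits, the difference of Slc25a4 ranged from 0.08 to 0.75.

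Candesartan against vehicle after sham surgery gave 0 of 154 calls, as did all 10310 probe sets (0%), by limma. At an unadjusted p under 0.05 there were 6 genes (3.9%), 4 higher and 2 lower, against 3.92%. Slc7a8, the LAT2 light chain for neutral amino acids and thyroid hormone, gave 1724.7 and 1297.7 in sham candesartan, against 2937.0 and 3376.8 in sham vehicle. These pools did not overlap, and the difference was -0.91 ± 0.24 (SE), with a 95% confidence interval of -1.44 to -0.38 and an adjusted p = 0.9997 by limma. After MCAO the same gene gave 2596.5 and 1349.2 with candesartan, against 3274.8 and 2425.5 with vehicle, a difference of -0.50. Slc44a2, a choline transporter-like gene, gave 4161.7 and 2408.0 in sham candesartan, against 2066.1 and 2210.1 in sham vehicle, a difference of 0.50 that was 0.15 without the sham candesartan 1 array and 0.85 without the sham candesartan 2 array. Slc39a13, a zinc carrier by family, gave 3390.8 and 3647.7 in sham candesartan, against 2794.9 and 2517.0 in sham vehicle, a difference of 0.36 (adjusted p = 0.9997 by limma). Slc25a45, of the mitochondrial carrier family, gave 1067.3 and 1176.8 in sham candesartan, against 566.0 and 832.3 in sham vehicle, a difference of 0.49 (adjusted p = 0.9997 by limma). The pools of Slc7a8, Slc44a2, Slc39a13, Slc25a45, Slc20a2 and Slc6a3 did not overlap between these 2 groups. These genes were picked by a small p, and the share of all probe sets without overlap was not counted. With 2 pools against 2 an exact test cannot go below p = 0.333. Slc20a2 and Slc6a3 completed the 6 genes with the smallest p, at 0.53 and -0.68, and Slc6a3 was at -0.26 without the sham candesartan 2 array.

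Other transport systems were set beside the solute carriers for MCAO against sham over both pretreatments. Of 12 Slco genes, organic anion carriers, 6 passed the filter, with 3 higher, 3 lower and a median of -0.02. The sodium pump list had 3 of 5 subunit genes above the filter and a median of 0.05, the V-type ATPase list 14 of 16 with a median of 0.05, and the ABC transporter list 16 of 24 with a median of 0.02. None of these lists had a call by limma, and 2 genes in all had an unadjusted p under 0.05, both ABC transporters. The lists of other cell types also had 0 calls, with a median of 0.01 for 9 oligodendrocyte, -0.06 for 6 endothelial, -0.15 for 7 microglial and -0.29 for 2 blood markers above the filter, and 4 higher and 5 lower of 9 neuronal markers.

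Agreement between probe sets could be read for 21 genes, which had 23 further probe sets above the filter. The sign of the difference over both pretreatments was the same for 17 of these and opposite for 6, with Slc4a4, Slc11a2 and Slc29a3 the most discordant. None of the 23 passed the test.

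The 70 solute carrier genes below the filter had mean signals of 34.7 to 771.1, and 0 of them was called when the filter was dropped. Just inside the filter lay Slc6a11 (mean signal 723.5), Slc22a13 (727.7), Slc22a6 (751.0), Slc25a48 (764.0) and Slc22a15 (796.7). Just outside were Slc25a15 (771.1), Slc40a1 (760.5), Slc44a4 (711.2), Slc7a12 (706.0) and Slc2a4 (699.1). Slc40a1, the iron exporter ferroportin, gave 797.8 and 1327.7 in MCAO candesartan, 624.9 and 880.3 in MCAO vehicle, 349.4 and 729.3 in the sham candesartan pools, and 843.0 and 531.9 in sham vehicle, with overlapping groups. Slc14a1, a urea transporter of astrocytes and red cells, was singled out after its values were seen. It gave 239.5 and 257.4 in MCAO candesartan, 739.4 and 781.4 in MCAO vehicle, 760.8 and 700.9 in the sham candesartan pools, and 639.0 and 994.8 in sham vehicle, and candesartan minus vehicle after MCAO was -0.87 (adjusted p = 0.289 by limma without the filter).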

How the data were processed

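The authors deposited 1 table of signal intensities per probe set, which were linear and had not been log transformed. They came from GCOS, Affymetrix software, per the submitters' processing notes. Its version and scaling target are not given in the sources used here. Deposited values were not rescaled. Before log2, 369.9 was added to each signal (20th percentile). Of 15923 probe sets 57 controls were left out, and 10310 exceeded 916.3 on at least 2 arrays.

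One limma model of 4 group means (version 3.58.1, R 4.3.3; eBayes, variance trend, residual degrees of freedom 4) was fitted over all probe sets, and 6 contrasts were adjusted within each. It was tested on simulated data. The number of arrays limits the precision: with 2 pools against 2 an exact test cannot go below p = 0.333, so the p-values rest on a spread pooled over genes.

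Probe set symbols came from the platform annotation, 312 probe sets with several symbols and 2771 with none were unnamed, and all 154 genes matched RefSeq (GRCr8). The genes named were those with the smallest p in each contrast (6 each), the extremes of mean signal, 40 fixed genes of which 33 passed the filter, the largest difference of each of 8 classes and the most discordant probe sets. Slc3a1, Slc4a10, Slc5a6, Slc5a7, Slc6a8, Slc6a20a, Slc8a2, Slc8a3, Slc14a1, Slc22a8, Slc27a1 and Slc49a4 fell outside this rule and were named after their values were seen. Marker and transporter lists were described without a set test. The members, lists and rules were chosen with earlier results of these data known, and the dopamine neuron list after their values were seen. Alternatives covered scaling, offset, filter, variance model, groups in the fit, probe set choice, leaving out each array, and a replicate block.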

Additional observations from a re-analysis of the deposited data

How the results depend on the processing

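The count of 0 solute carrier genes passing the test held in all 6 comparisons under the other scalings, offsets, filters and variance models, and when any probe set of a gene could be called. Fitting only the groups compared gave 1 gene for MCAO with vehicle, Slc6a3 at -0.94. Leaving out 1 array at a time gave 0 to 11 genes for MCAO with candesartan, 0 to 14 for candesartan after MCAO, 0 to 3 for the interaction and 0 to 3 for MCAO over both pretreatments. The highest counts all came without the MCAO candesartan 1 array, which leaves MCAO candesartan 2 as the only array of its group, assumed to vary like the others. For MCAO over both pretreatments these 3 genes were Slc4a4, Slc4a10 and Slc25a5. There was 1 gene without MCAO candesartan 2 (Slc25a25 at 0.70) and 1 without sham candesartan 2 (Slc6a3 at -0.94, adjusted p = 0.046 by limma). The share of all probe sets passing in the fits that left out 1 array was not set beside these counts. Whether the counts are particular to solute carriers was therefore not tested, and neither was their cause. Of the 6 differences with the smallest p in each comparison, none changed sign under the alternatives of scaling, offset, filter, variance model, groups in the fit, replicate block or arrays left out, although quantile normalization brought Slc25a4 for candesartan after MCAO to 0.08. Probe set choice did change signs: of 23 further probe sets 6 had the opposite sign over both pretreatments, among them that of Slc4a4 (0.28, against -0.34). Median differences over the genes stayed near 0: that of MCAO with candesartan, -0.06, was -0.03 under quantile normalization and 0.01 over the 88 genes of a stricter filter, and that of the interaction, -0.07, was 0.01 over those 88 genes. With a replicate block the count was 0 in all 6 comparisons. Pools with the same number did not deviate together, with 6 correlations from -0.095 to 0.137 between groups, so the number is only a name. Dim genes are limited most, since the offset of 369.9 shrinks their differences.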
